A study of Mus musculus with 12 samples.

Results

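The comparison described here is that of mouse hearts overexpressing cardiac ISL1-interacting protein (CIP) with control hearts, both after transverse aortic constriction (TAC). It takes 6 of the 12 libraries of the series, 3 CIP-OE-TAC and 3 Ctrl-TAC animals, and the 13392 genes that reached a value of 10 or more in 3 or more of the 12 libraries. All mice were C57BL/6 animals of 4 months whose hearts were taken 8 weeks after surgery, and bulk total RNA of the heart was sequenced with 1 library per mouse. CIP-OE mice (KI in the labels) were CIP-KI-flox;aMHC-Mer-Cre-Mer animals, in which a Cre recombinase that tamoxifen activates in cardiomyocytes under the Myh6 promoter removes a stop cassette before a CIP cDNA at the Rosa locus. Controls were CIP-KI-flox littermates without the Cre transgene, so they share the floxed allele but lack Cre. An effect of CIP and one of the activated Cre therefore cannot be told apart. Tamoxifen was injected after TAC, and the sources used here do not say whether controls received it. The 6 sham-operated hearts, 3 of each genotype, entered the fit and serve as reference levels.

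CIP, encoded by Mlip, is a protein of cardiac and skeletal muscle that binds A-type lamins and the transcription factor ISL1. TAC narrows the aorta, so that the left ventricle ejects against raised pressure. The cardiomyocytes enlarge, fetal genes are expressed again, fibroblasts lay down matrix and oxidative metabolism declines as the heart goes on to fail. The heart muscle cell draws its energy from mitochondria, whose respiratory chain is built from many subunits encoded in the nucleus and a few encoded in the mitochondrial genome. The question of the comparison is which transcripts differ when CIP is raised in a heart already under this load.

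The deposited values were read counts over a size factor of each library, as the authors made them, and are called normalized reads below. Libraries held 6990445 to 7704812 reads in genes. Differences were tested with limma on log2(value + 1), a scale that understates the change of genes with few reads, with p-values adjusted by Benjamini-Hochberg over all of them. Genes are termed called where that p was under 0.05 and the levels differed by more than 1.5-fold. Values are given in the order KI_TAC_3577, KI_TAC_3579 and KI_TAC_3587 for CIP-OE-TAC animals and Ctrl_TAC_3586, Ctrl_TAC_3800 and Ctrl_TAC_4231 for Ctrl-TAC animals.

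Mlip, on chromosome 9 of GRCm38 from 77102081 to 77352969, stood at 5909, 8232 and 5921 normalized reads in the CIP-OE-TAC hearts and at 888.5, 823 and 936 in the Ctrl-TAC hearts. The ranges are far apart and every CIP-OE-TAC library lies above each of the 6 sham libraries and each Ctrl-TAC library. Reads of the cDNA and of the endogenous gene are counted together under the symbol. A mutated ligand-binding domain of the estrogen receptor, encoded by Esr1 (chromosome 10, 4611593 to 5005614), flanks Cre in Mer-Cre-Mer. It had 15398, 24178 and 9528 normalized reads in CIP-OE-TAC hearts and 55.4, 14.6 and 11.3 in the Ctrl-TAC hearts. The log2 differences of 2.90 for Mlip and 9.43 for Esr1 were called (limma, adjusted p = 9.58e-04 and 5.01e-04). A1cf, the gene into which background knowledge places the Myh6-driven Mer-Cre-Mer insertion, lay below the filter and was not tested, with 7.64, 5.63 and 2.82 normalized reads in CIP-OE-TAC hearts and 0 in every control library. All 3 genes thus followed the labels in each of the 12 libraries. The promoter of the endogenous Mlip gene is shown because the transgene at the Rosa locus does not depend on it, with 300 bases of the minus strand from the RefSeq table of GRCm38.p6 (chr9:77347821-77348120) and capitals for the searched motifs it holds, the E-box CACGTG, the TATA box, and at both remaining places the GATA factor motif AGATAA as read on the other strand.
Mlip promoter: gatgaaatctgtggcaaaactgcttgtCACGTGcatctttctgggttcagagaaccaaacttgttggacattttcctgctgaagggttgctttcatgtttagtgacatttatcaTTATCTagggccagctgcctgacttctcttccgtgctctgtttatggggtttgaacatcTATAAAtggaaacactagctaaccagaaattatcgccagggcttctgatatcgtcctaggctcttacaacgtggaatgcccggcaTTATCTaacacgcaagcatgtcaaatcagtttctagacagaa

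Of the 13392 genes, 646 were higher in CIP-OE-TAC than in Ctrl-TAC hearts (4.82%) and 921 were lower (6.88%). In 622 of the former and 892 of the latter the values of the 3 CIP-OE-TAC libraries did not overlap those of the 3 Ctrl-TAC libraries, which was so for 2459 and 2375 of all genes tested. The group that stood apart was mostly Ctrl-TAC. In 531 of the 646 genes called higher (82.2%) all 3 Ctrl-TAC libraries lay below all of the other 9 libraries, sham hearts included, and in 728 of the 921 called lower (79%) they lay above the other 9. Over all genes tested, Ctrl-TAC stood apart in this way in 23.4%. CIP-OE-TAC hearts stood apart from the other 9 libraries in 15 of the genes called higher and 22 of those called lower, and in 1.02% of all genes tested. Both CIP-OE groups together were apart from both control groups in 15 and 26 called genes and in 0.68% of all genes tested. The patterns rest on the libraries that made the calls, so they describe the calls and are not a test of them.

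The difference between the 2 TAC groups ran with the base composition of the genes. Across 13264 genes with an annotated GC content, the rank correlation of the log2 fold change with GC content was -0.66, and that of the genotype difference in sham hearts was 0.32, both over genes that share the same libraries. Among the genes poorest in GC of 5 equal bins, with 20 to 43.8%, the median log2 fold change was 0.40 and 17.1% of genes were called higher. In the bin richest in GC, with 55.4 to 75.5%, it was -0.45 and 21.7% were called lower. The median of GC-rich genes minus that of GC-poor genes was largest in the Ctrl-TAC hearts, with 0.94, 0.60 and 0.69 on the log2 scale, against 0.02, -0.25 and -0.09 in CIP-OE-TAC and -0.56 to 0.02 in sham hearts. Each library was therefore also corrected for GC content by a smooth curve of its deviations over GC. After this correction 130 genes were called higher (0.971%) and 223 lower (1.67%), of which 98 and 187 were also called without it. A weaker trend ran with transcript length, with a rank correlation of 0.270, and of 0.165 after GC correction. In the bin with the shortest transcripts 14% of genes were called lower and 3.47% higher before it. In that with the longest, 1.92% were lower and 9.05% higher. What set the composition of the Ctrl-TAC libraries was not tested. Values after GC correction are given below for the lists and for most genes whose call they move.

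**Figure D1:**
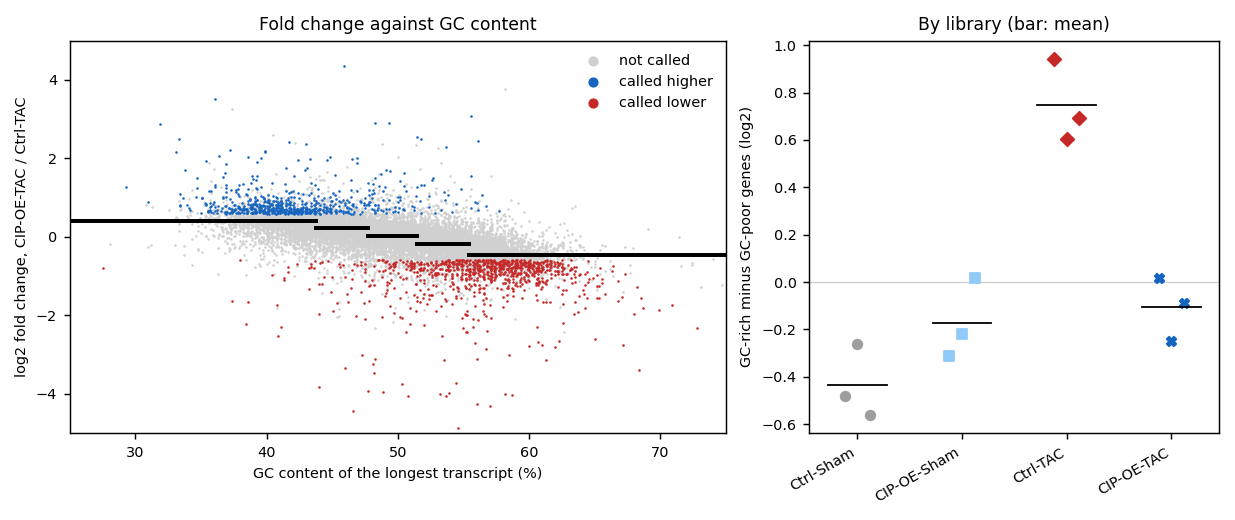
Left, the log2 fold change of each gene between CIP-OE-TAC and Ctrl-TAC against the GC content of its longest transcript, with called genes in colour, black bars for the median of each of 5 GC bins, and axes limited to GC contents from 25 to 75% and to moderate fold changes, so that Esr1 at 9.43 lies outside. Right, the median of GC-rich genes minus that of GC-poor genes for each library on the log2 scale with a bar for each group mean, where the 3 Ctrl-TAC libraries at 0.60 to 0.94 lie above the other 9.

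To look past this composition, genes were taken for close description that were called, did not overlap between the groups, reached a mean of 50, and kept the call after GC correction and without any 1 library. Pseudogenes, predicted genes, ribosomal proteins, mitochondrially encoded genes and a short list of genes already described from these data were set aside. That left 29 rises and 64 falls, and the 15 largest of each are described, Mlip and Esr1 among the rises. Some genes set aside met the same criteria with larger changes. Among them Gpr22, an orphan receptor of the heart, rose by 1.92 on the log2 scale, the potassium channel subunit gene Kcnv2 by 1.49 and Amd1, an enzyme of polyamine synthesis, by 1.35. Cebpb, a transcription factor, differed by -2.75, and Cox7c, Atp5g1, Nppa and Ndufb4, treated with their lists, by -2.23 to -1.73. The choice used these values, so they are a description. Frem2 (chromosome 3, 53513938 to 53657355), which encodes an extracellular protein of basement membranes, had 62.2, 50.6 and 65.8 normalized reads in CIP-OE-TAC hearts and 14.8, 35.7 and 22.6 in Ctrl-TAC hearts. The log2 fold change was 1.33, with a standard error of 0.287 (n = 3 and 3, limma adjusted p = 0.00529). All CIP-OE-TAC values lay above all Ctrl-TAC values, and the highest just reached the range of the sham hearts, which had 65.1 to 124 normalized reads. Emilin2 (chromosome 17, 71252172 to 71311978), a glycoprotein of elastic fibres, had 129, 129 and 98.7 normalized reads in CIP-OE-TAC hearts against 64.7, 60.8 and 44.3 in Ctrl-TAC hearts, a log2 difference of 1.07 (limma, adjusted p = 7.93e-04). The sham hearts held more of it in each library, 143.5 to 204.5. Its rise was 1.43 after GC correction and so did not shrink with it.

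Several rises were in genes of signalling and ion transport. Prkg1 (chromosome 19, 30564489 to 31765033) encodes the cGMP-dependent protein kinase that acts below the natriuretic peptide receptors. It stood at 100.5, 145 and 96.8 normalized reads in CIP-OE-TAC hearts and at 41.6, 54.3 and 52.1 in Ctrl-TAC hearts (log2 1.18, adjusted p = 0.00275 from limma), and sham hearts with 57.0 to 119 spanned the gap. A1cf, where background knowledge places the Mer-Cre-Mer insertion, is on chromosome 19 too. An effect of the insertion on Prkg1 was not tested. Prkg1 served with Actb as a normalizer of the study's quantitative PCR, and Actb had 1708, 1156 and 1631 normalized reads in CIP-OE-TAC hearts against 2161, 2321 and 1621 in Ctrl-TAC hearts, a log2 difference of -0.45 (adjusted p = 0.0454 from limma) that was below the fold threshold. Kcnj5 (chromosome 9, 32314707 to 32344350) codes for a subunit of the potassium channel that acetylcholine opens in heart muscle. Its values were 219.5, 337 and 226.5 in CIP-OE-TAC and 109.9, 132 and 138 in Ctrl-TAC hearts, a log2 difference of 1.02 with a standard error of 0.175 (limma, adjusted p = 0.00142). Sham hearts of both genotypes had 366 to 578, so the CIP-OE-TAC values lay between those of the Ctrl-TAC and the sham hearts. Nr3c2 (chromosome 8, 76899442 to 77245012), the mineralocorticoid receptor, had 101.5, 156 and 125 normalized reads in CIP-OE-TAC and 64.7, 77.8 and 48.6 in Ctrl-TAC hearts (log2 0.99, adjusted p = 0.00355 from limma).

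A further set of rises was in metabolism, gene regulation and translation. Suclg2 (chromosome 6, 95473009 to 95718800), the GTP-specific subunit of the citric acid cycle enzyme succinyl-CoA ligase, had 451, 498 and 511 normalized reads in CIP-OE-TAC and 267, 194.5 and 283 in Ctrl-TAC hearts. Its log2 difference was 0.99 with a standard error of 0.141 (limma, adjusted p = 3.51e-04), and the 6 sham values of 463 to 579 overlapped those of the CIP-OE-TAC hearts. Reads of Suclg2 may be shared with a pseudogene that matches 38.7% of its longest transcript. Npm1 (chromosome 11, 33152287 to 33163206), a nucleolar histone chaperone, stood at 195, 226 and 214 in CIP-OE-TAC hearts and at 97.0, 110.2 and 85.9 in Ctrl-TAC hearts, and sham hearts had 180.3 to 245. Near-identical pseudogenes cover 53.8% of its transcript and make the value uncertain, as one does for 44.8% of Btf3 (chromosome 13, 98309896 to 98317006), a part of the complex that binds nascent proteins, which rose by 1.04 on the log2 scale. Sox6 (chromosome 7, 115470872 to 116038796), a transcription factor that helps to set muscle fibre type, had 141, 124 and 146 normalized reads in CIP-OE-TAC and 45.3, 81.9 and 94.6 in Ctrl-TAC hearts. The log2 fold change was 0.94 (adjusted p = 0.00497 from limma), and the sham range of 122 to 172 held the CIP-OE-TAC values.

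The other rises of the set were smaller in level or shared reads with neighbours. Klhl33 (chromosome 14, 50888582 to 50897507), a member of the kelch-like family of ubiquitin ligase adaptors, had 83.0, 96.6 and 72.4 normalized reads in CIP-OE-TAC hearts against 46.2, 26.7 and 53.8 in Ctrl-TAC hearts, far under the 154 to 233 of the sham hearts. Its log2 fold change was 1.02 (adjusted p = 0.00443 from limma). Rprd1a, whose product binds the tail of RNA polymerase II, rose by 0.99 on the log2 scale. Bhlhb9 (chromosome X, 135797594 to 135891081) rose by 1.19, yet its exons overlap those of Gprasp1 and Gprasp2. Ankrd61 (chromosome 5, 143890741 to 143897685) rose by 1.17 and overlaps Eif2ak1 on the other strand, and the counting is not stated to use strand. A promoter of Klhl33 is printed for its MEF2 site, in capitals, and one of Emilin2 for the ATF4 element TGATGNAA, in capitals, since MEF2 and ATF4 are regulators of muscle and of stress genes. Both are from the minus strand of GRCm38.p6 in the RefSeq table (chr14:50897434-50897733 and chr17:71311507-71311806).
Klhl33 promoter: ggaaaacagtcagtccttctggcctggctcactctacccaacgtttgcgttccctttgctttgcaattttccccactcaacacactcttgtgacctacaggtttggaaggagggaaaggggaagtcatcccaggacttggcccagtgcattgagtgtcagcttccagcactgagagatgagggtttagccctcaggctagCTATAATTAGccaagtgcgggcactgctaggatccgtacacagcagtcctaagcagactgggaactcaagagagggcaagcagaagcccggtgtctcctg
Emilin2 promoter: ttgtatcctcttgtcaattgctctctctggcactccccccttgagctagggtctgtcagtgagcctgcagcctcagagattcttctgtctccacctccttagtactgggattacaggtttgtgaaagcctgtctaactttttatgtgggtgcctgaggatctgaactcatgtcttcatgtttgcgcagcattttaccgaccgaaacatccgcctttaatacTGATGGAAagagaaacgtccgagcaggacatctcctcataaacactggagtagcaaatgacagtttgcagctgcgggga

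**Figure D2:**
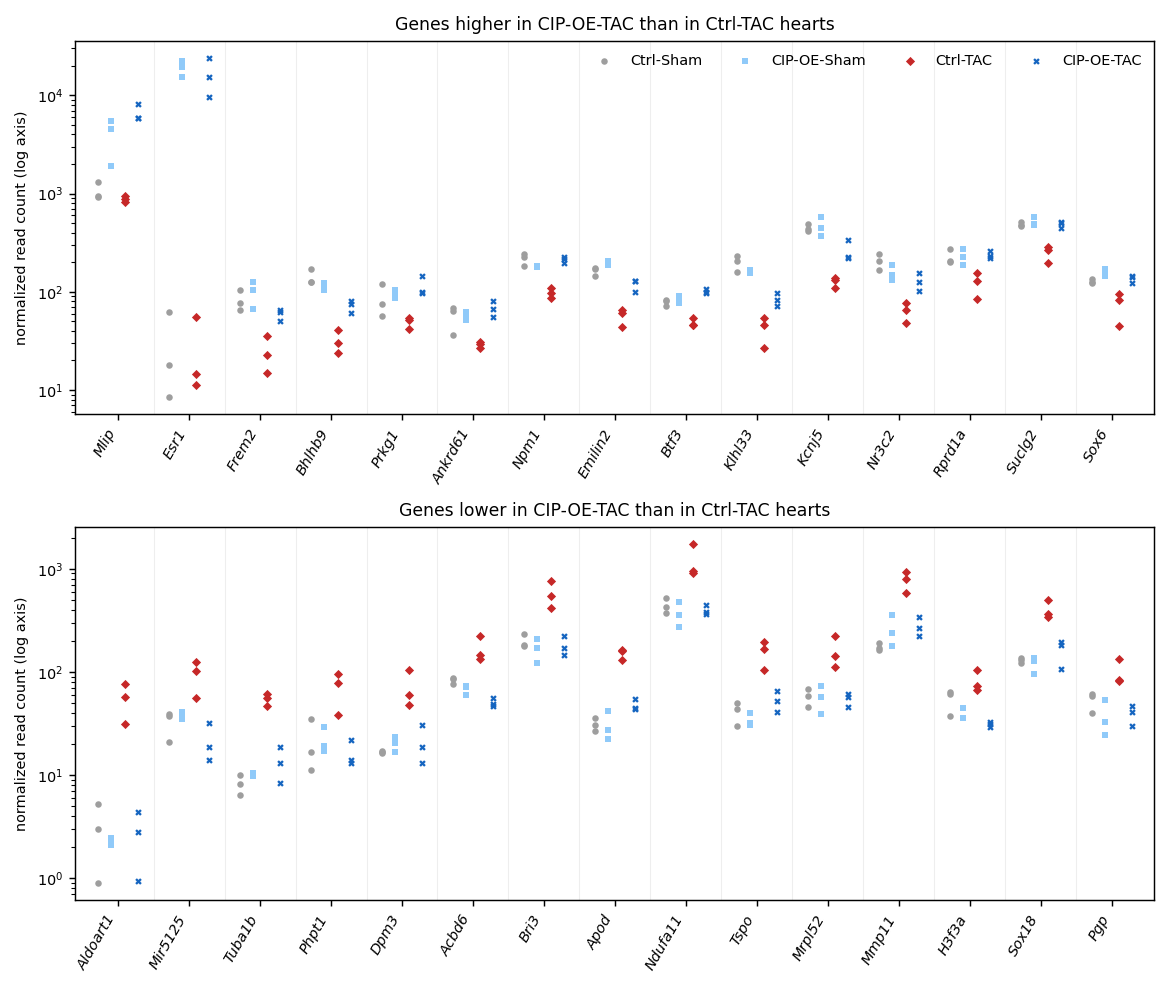
Normalized reads of the 30 genes in each of the 12 libraries on a log axis, with a point per library, a colour per group, rises above and falls below. Among the falls, libraries at 0 are drawn at a low floor value, since a log axis holds no 0. The Ctrl-TAC points lie apart from the sham points in most genes, and for Mlip and Esr1 both CIP-OE groups lie above both control groups.

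The largest fall of the set was that of Aldoart1 (chromosome 4, 72850583 to 72852634), an aldolase gene known from the testis, at 4.37, 0.94 and 2.82 normalized reads in CIP-OE-TAC hearts and at 75.7, 57.5 and 31.2 in Ctrl-TAC hearts. The sham hearts had 0 to 5.30, so the transcript was at the level of a few reads in all 9 other libraries. Aldoa, its counterpart in muscle, had a log2 difference of -0.22 (adjusted p = 0.251 from limma), against -3.94 for Aldoart1 (adjusted p = 8.90e-04 from limma). Mir5125 (chromosome 17, 23823291 to 23823369) had 31.7, 14.1 and 18.8 normalized reads in CIP-OE-TAC and 124, 103 and 56.4 in Ctrl-TAC hearts, a log2 difference of -2.09 (adjusted p = 7.43e-04 from limma). The locus lies within an intron of Srrm2, whose own log2 difference was -0.06 (adjusted p = 0.775 from limma). Long fragments of total RNA were counted, so the reads are of the precursor locus and the mature miRNA was not measured. Its mature sequence from the RefSeq table of GRCm38.p6 (chr17:23823339-23823358, plus strand) has the seed, bases 2 to 8, in capitals.
mmu-miR-5125: uCUGCCUGggauuuccuugu

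Among the other falls were 4 genes of varied function. Apod (chromosome 16, 31296192 to 31314808), apolipoprotein D, a secreted carrier of small lipids, stood at 44.8, 54.4 and 44.2 normalized reads in CIP-OE-TAC hearts and at 130.2, 164 and 159 in Ctrl-TAC hearts. The log2 difference was -1.64 with a standard error of 0.234 (limma, adjusted p = 3.53e-04), and both CIP-OE-TAC and sham hearts, the latter with 22.1 to 42.2, lay far below Ctrl-TAC. Acbd6 (chromosome 1, 155558120 to 155691330), an acyl-CoA binding protein, had 49.1, 46.9 and 56.4 in CIP-OE-TAC and 222, 145 and 134.5 in Ctrl-TAC hearts (log2 -1.67, adjusted p = 7.82e-05 from limma). In this gene the CIP-OE-TAC hearts lay below all other 9 libraries, of which the CIP-OE-Sham hearts had 59.1 to 73.5 and the Ctrl-Sham hearts 76.3 to 88.0. Dpm3 (chromosome 3, 89259358 to 89267079), a subunit of the enzyme that makes dolichol phosphate mannose for glycosylation, had 30.6, 13.1 and 18.8 against 103, 60 and 47.7 in Ctrl-TAC hearts. Phpt1 (chromosome 2, 25573430 to 25575224), a phosphatase of histidine residues, had 21.8, 13.1 and 14.1 against 78.5, 95.6 and 38.2, and shares exons with Mamdc4. The falls of Dpm3 and Phpt1 were -1.71 and -1.98 on the log2 scale.

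Falls were also seen in mitochondrial, matrix and endothelial genes. Ndufa11 (chromosome 17, 56717767 to 56722141), a membrane subunit of complex I, had 447, 382 and 366.5 normalized reads in CIP-OE-TAC and 1752, 948 and 915 in Ctrl-TAC hearts, a log2 difference of -1.53 with a standard error of 0.249 (limma, adjusted p = 0.00225). Mrpl52 (chromosome 14, 54426909 to 54429756), of the large subunit of the mitochondrial ribosome, had 61.1, 45.9 and 57.3 against 222, 143 and 113. Tspo (chromosome 15, 83563592 to 83574203), a cholesterol-binding protein of the outer mitochondrial membrane, had 52.4, 41.3 and 64.8 against 193, 169 and 104, and overlaps Mcat on the other strand. In all 3 genes the sham hearts overlapped the CIP-OE-TAC hearts. Mmp11 (chromosome 10, 75923222 to 75936496), the matrix metalloproteinase stromelysin-3, stood at 342, 221 and 269 in CIP-OE-TAC hearts and at 924.5, 584 and 798 in Ctrl-TAC hearts (log2 -1.47, adjusted p = 0.00166 from limma), and overlaps the mitochondrial gene Chchd10 on the other strand. Sox18 (chromosome 2, 181669836 to 181671640), a transcription factor of endothelial cells, had 193, 184 and 107 against 503, 365 and 338 normalized reads (log2 -1.34, adjusted p = 8.86e-04 from limma). Since whole hearts were sequenced, fewer cells of a type and less RNA per cell cannot be told apart.

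The other falls of the set had limits of their own. Tuba1b (chromosome 15, 98931425 to 98934565), an alpha-tubulin, fell by 2.0 on the log2 scale, but 91.1% of its transcript is nearly identical to other loci. H3f3a (chromosome 1, 180800832 to 180813943), histone H3.3, fell by 1.34 with 29.5, 30.9 and 32.9 normalized reads against 105, 72.9 and 66.8, and 20.6% of its transcript matches other loci. Bri3 (chromosome 5, 144244437 to 144446757) fell by 1.65, with 225, 169 and 146 against 757, 412.5 and 548. Pgp (chromosome 17, 24470392 to 24473110), a phosphatase of glycolytic by-products, fell by 1.31, and its adjusted p after GC correction was 0.0495 from limma. Of the falls with a promoter in the table, Ndufa11 is the one with a cAMP response element TGACGTCA, in capitals, and its promoter is shown from the plus strand of GRCm38.p6 in the RefSeq table (chr17:56717512-56717811).
Ndufa11 promoter: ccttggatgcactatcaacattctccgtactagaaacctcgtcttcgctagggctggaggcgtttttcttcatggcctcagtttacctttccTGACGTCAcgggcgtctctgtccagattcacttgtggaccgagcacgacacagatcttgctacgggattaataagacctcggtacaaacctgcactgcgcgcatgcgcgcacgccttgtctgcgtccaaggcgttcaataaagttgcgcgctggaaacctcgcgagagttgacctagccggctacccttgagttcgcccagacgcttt

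Nuclear genes of the respiratory chain were lower in CIP-OE-TAC hearts and those of the mitochondrial genome were not. Of 36 nuclear subunits of complex I tested, 13 were called lower and 0 higher, with a median log2 fold change of -0.48 against 0.01 over all genes tested. At an unadjusted p under 0.05 limma had 1 higher and 23 lower, and edgeR and DESeq2 called 0 higher and 14 and 16 lower. After GC correction 8 were lower and the median was -0.43, and after GC and length correction 8 were lower at a median of -0.27. The count was 5 without Ctrl_TAC_3586, with a median of -0.25, 7 without KI_TAC_3587 and 19 without Ctrl_TAC_4231. Ndufb4 had 110.3, 95.6 and 91.2 normalized reads against 323, 523 and 210.0 in Ctrl-TAC hearts, the largest fall at -1.73, with 40.2% of its transcript matched by another locus. Ndufs7, an iron-sulfur subunit, fell by 1.03 on the log2 scale and lost the call after GC correction at -0.49, while Ndufb3 fell by 1.02 and kept it at -1.25. A pseudogene matches 37% of the Ndufb3 transcript.

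Complexes II to V held 12 genes called lower and 1 called higher of 42 tested, with a median of -0.38, and 9 and 1 after GC correction with a median of -0.18. The median was -0.03 after GC and length correction, with 7 lower and 2 higher, and -0.10 without Ctrl_TAC_3586, with 10 and 2. Atp5g1, which encodes the c subunit of ATP synthase, had 397, 296 and 223 normalized reads in CIP-OE-TAC and 1251, 1516 and 913 in Ctrl-TAC hearts, a log2 difference of -2.01 with a standard error of 0.214 (limma, adjusted p = 1.36e-04). Sham hearts had 240.0 to 368, so Ctrl-TAC stood above the rest. Cox7c, a small subunit of cytochrome c oxidase, had 10.9, 13.1 and 21.6 against 82.2, 67.3 and 68.6 in Ctrl-TAC hearts, a fall of 2.23 on the log2 scale at a low level and with a pseudogene matching 32.9% of its transcript. Cox6a2, the heart and muscle form of another oxidase subunit, had 8603, 5591 and 6056 against 15490, 13673 and 9799, a fall of 0.94 that was 0.79 after GC correction. Atp5l was higher by 0.90 and lost the call after correction at 0.48. Atp5b, the catalytic beta subunit of ATP synthase, differed by 0.09 (adjusted p = 0.661 from limma).

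Of 74 mitochondrial ribosomal proteins 16 were called lower and 0 higher by limma, with a median of -0.27 against 0.01 over all genes, and 11 and 0 after GC correction. Without Ctrl_TAC_3586 the count was 9. Mrps24 had 93.9, 111 and 123 normalized reads in CIP-OE-TAC and 356, 254 and 191 in Ctrl-TAC hearts, a log2 difference of -1.24 (adjusted p = 5.26e-04 from limma), and shares exons with Urgcp. Of 12 protein genes of the mitochondrial genome 4 were higher (2 without KI_TAC_3577 and 6 without Ctrl_TAC_3586) and 0 lower, with a median of 0.64, and 0 were called by limma after GC correction, where 3 were higher at an unadjusted p under 0.05 and the median was 0.10. Among them mt-Nd6 had 121160, 83425 and 85269 normalized reads against 72378, 61341 and 41551, a rise of 0.74. mt-Co1, the member with the most reads, differed by 0.38 (adjusted p = 0.0954 from limma). Mitochondrial genes took 47.9, 41.9 and 43.3% of the reads in CIP-OE-TAC hearts and 43.0, 33.9 and 36.0% in Ctrl-TAC hearts. The means of 44.4 ± 3.11% and 37.6 ± 4.77% (SD, n = 3 each) differed by 6.74 points with p = 0.2 in a two-sided exact permutation test, whose smallest possible p is 0.1.

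Enzymes that feed the chain are set beside the 4.82% of all genes called higher and the 6.88% called lower. In the citric acid cycle 1 of 23 genes tested was higher, Suclg2, and 0 were lower, with a median of 0.11. In fatty acid uptake and oxidation 3 of 34 were lower and 0 higher with a median of 0.15, and after GC correction 0 were lower and 1, Cpt1b, was higher. Plin5, a coat protein of lipid droplets, had 193, 311 and 238 normalized reads against 440.5, 339 and 468, a fall of 0.76 that shrank to -0.26 and lost the call after correction. Etfb, an electron carrier of beta-oxidation, fell by 1.17, or by 0.76 after correction, where it was not called. Breakdown of branched-chain amino acids had 3 of 21 genes higher and 0 lower, and 0 of either after correction. Of 30 antioxidant enzymes 2 were lower and 1 higher, and 1 and 0 after correction. The lower count was 1 to 5 with 1 of the TAC libraries left out. Sod3, the extracellular superoxide dismutase, had 410.5, 295 and 428 against 954, 1073 and 666, a fall of 1.24 that kept its call at -1.08.

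**Figure D3:**
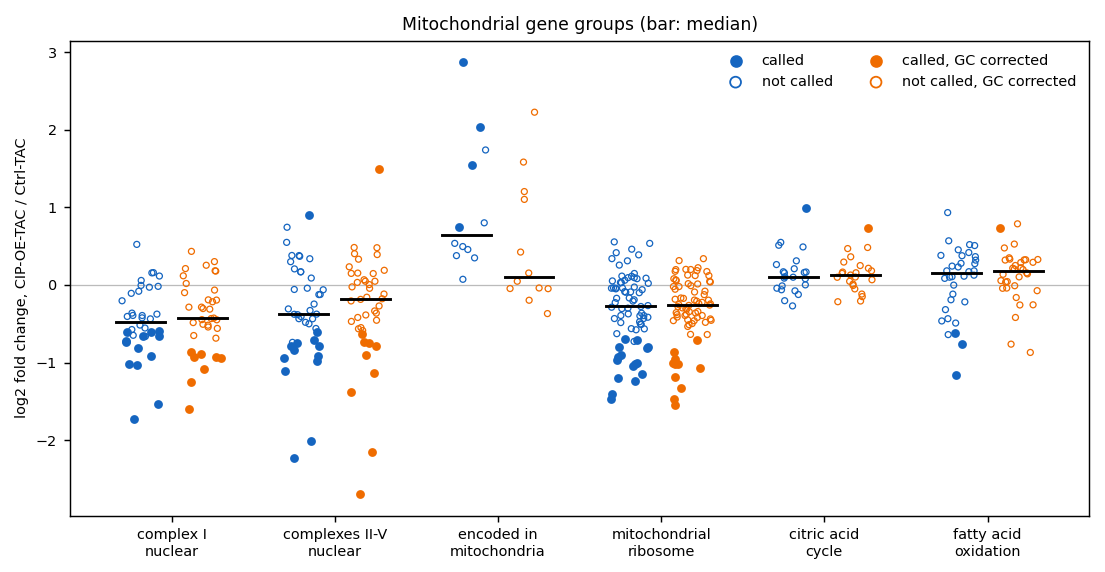
Log2 fold changes between CIP-OE-TAC and Ctrl-TAC of every tested gene in 6 mitochondrial groups, as tested (blue) and after GC correction (orange), filled where called, with a bar at each median. The medians of the nuclear complex I subunits, -0.48 and -0.43, stay below 0 under both, and that of the mitochondrially encoded proteins falls from 0.64 to 0.10.

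A small number of called genes separated all 6 CIP-OE hearts from all 6 control hearts, with or without TAC, 15 of them higher and 26 lower. They were picked out after their values were seen. Among the genes called after GC correction 11 higher and 21 lower genes had this pattern. Cox5a, a nuclear subunit of cytochrome c oxidase, had 1961, 1894 and 1814 normalized reads in CIP-OE-TAC hearts and 1991 to 2374 in CIP-OE-Sham hearts. Ctrl-TAC hearts had 2805 to 3601 and Ctrl-Sham hearts 3159 to 3617, so each of the 6 control values was above each CIP-OE value. The log2 fold change under TAC was -0.78 (adjusted p = 7.97e-04 from limma), that in sham hearts -0.65 (adjusted p = 0.0766), and the gene overlaps the predicted gene Gm26631 on the other strand. Uqcrb, a subunit of complex III, had 344, 418 and 306 in CIP-OE-TAC hearts and 321 to 455.5 in CIP-OE-Sham hearts, with 517 to 558 in Ctrl-Sham and 541 to 839.5 in Ctrl-TAC hearts. Its difference was -0.98 under TAC and -0.49 in sham hearts (adjusted p = 0.261 from limma), with pseudogenes matching 39.8% of its transcript.

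More genes had all CIP-OE values below all control values. Cox17, the copper chaperone of cytochrome c oxidase, had 87.4 to 101.5 normalized reads in CIP-OE-TAC and 78.9 to 117 in CIP-OE-Sham hearts, against 118 to 125 in Ctrl-Sham and 124 to 262 in Ctrl-TAC hearts. Its highest CIP-OE and lowest control values nearly touched. Iscu, the scaffold on which iron-sulfur clusters are built, had 111 to 134 and 90.8 to 122 in the CIP-OE groups against 141 to 178 and 207.5 to 304 in the control groups, and fell by 1.01 under TAC. Other loci match 43.2% of its transcript. Ndufaf3, an assembly factor of complex I, had 39.5 to 72.1 and 59.1 to 69.2 against 81.6 to 105 and 85.1 to 165, and lost the call after GC correction at -0.76. The lower genes also included Coa3 and Mrps36, which lost their calls without Ctrl_TAC_3586 (largest adjusted p of 0.0316 and 0.0575 from limma, so that Coa3 fell short of the fold threshold), and Ndufb2 and Sdhaf4, which lost them without 3 and 9 of the 12 libraries in turn. For each of these genes the difference between the sham groups had an adjusted p over 0.05, so the sham levels separate without a call. Pseudogenes match 44.1% of the Mrps36 transcript. The pattern was not confined to mitochondrial genes. Cnpy2, Gpc4, Rangrf and Rpl35 were lower in this way and kept their calls after GC correction and without any 1 library. Other loci match 45.4% of the Rangrf and 47% of the Rpl35 transcript.

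On the rising side Gcnt1, a glycosyltransferase gene, and Adamts15 were above all controls in both CIP-OE groups. Gcnt1 was called at 1.54 on the log2 scale and missed the call after GC correction at 1.20 (adjusted p = 0.0501 from limma). Adamts15, a protease that cleaves proteoglycans of the matrix, had 63.3, 43.1 and 84.6 normalized reads in CIP-OE-TAC and 45.3 to 91.1 in CIP-OE-Sham hearts. Ctrl-TAC hearts had 18.2 to 38.1 and Ctrl-Sham hearts 24.4 to 26.8. The log2 fold change was 1.23 under TAC (adjusted p = 0.0113 from limma, or 0.0585 without KI_TAC_3587) and 1.17 in sham hearts (adjusted p = 0.183 from limma). Zfp827, a zinc finger gene, had 159 to 227 and 222.5 to 306 in the CIP-OE groups against 113 to 136 and 142.5 to 147 in Ctrl-TAC and Ctrl-Sham hearts, and lost its call without KI_TAC_3577, KI_TAC_3587 or Ctrl_TAC_3800, with a largest adjusted p of 0.0508 from limma. Eif3e, a subunit of a translation initiation factor, had 396 to 459.5 and 374 to 457 against 260.4 to 291 and 299 to 351, but its difference was 0.08 after GC correction. Among genes where CIP-OE-TAC hearts alone stood apart, Ywhah, a 14-3-3 adaptor protein, had 187 to 229 normalized reads against 109 to 162 in the other 9 libraries, a rise of 0.71 that was 0.74 after correction.

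**Figure D4:**
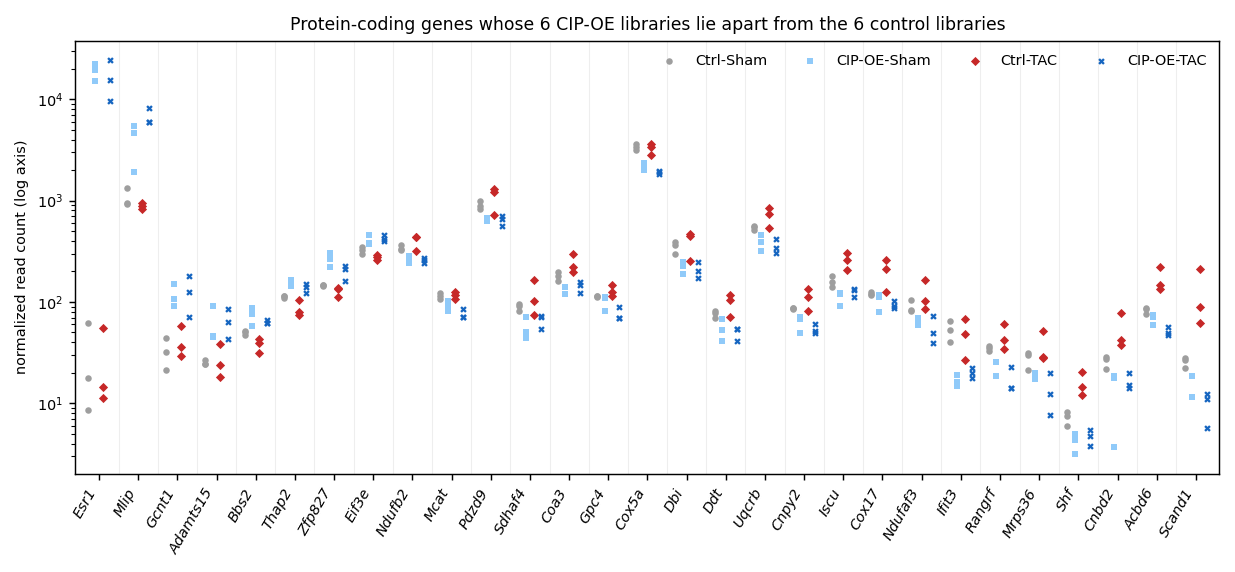
Normalized reads in each library on a log axis for 29 protein-coding genes whose 6 CIP-OE values all lie above or all lie below the 6 control values, ordered by fold change under TAC and chosen for that separation. Cox5a at 1814 to 2374 in CIP-OE and 2805 to 3617 in control libraries shows it with a narrow spread in each group.

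For genes of the contractile apparatus the shares over all genes tested, 4.82% higher and 6.88% lower, are the reference. In the sarcomere and Z-disc 2 of 31 genes were higher, Nebl and Nexn, and 0 lower. Both encode actin-binding proteins of the Z-disc, rose by 0.94 and 0.79 on the log2 scale and lost the call after GC correction at 0.53 and 0.37, where Myom2 alone was called, at 0.61. Of 19 fetal and stress genes 4 were lower with a median of -0.76 (2 to 7 with 1 library left out, the 7 without Ctrl_TAC_3586 and the 2 without KI_TAC_3577, KI_TAC_3579 or Ctrl_TAC_4231), and 2 after correction. Myh7, the fetal heavy chain of myosin, had 7922, 6450 and 9661 normalized reads against 11299, 9174 and 8090, where the groups overlap. Nppb, the B-type natriuretic peptide, had 2180.5, 2592.5 and 2863 against 2343, 5188 and 5500, a difference of -0.68 (adjusted p = 0.282 from limma). Nppa fell by 1.88 and was the largest fall of the list. Among 31 genes of the dystrophin complex, desmin and the nuclear lamina, 3 were lower and 0 higher, and 1 was lower after correction. Lmna, the gene of the A-type lamins that CIP binds, had 338.5, 303 and 405 against 649, 537 and 543, a fall of 0.73 that was -0.55 after correction and below the fold threshold there. Des, the intermediate filament desmin, fell by 0.71 from 18299, 19127 and 21259 to 11430, 11806 and 12577, or by 0.35 after correction, where the call was lost.

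Calls among genes of excitation and of contact between cells ran in both directions. Of 22 potassium channel genes 5 were higher and 1 lower, and 2 and 0 after GC correction, namely Kcnv2 and Kcnj5. The higher count was 3 without KI_TAC_3579. Kcnj2, the channel of the resting potential, had 361, 259 and 319.5 normalized reads against 214, 165 and 170.1, a rise of 0.77 that was 0.39 after correction and not called there. Kcnj3, the partner of Kcnj5 in the acetylcholine-gated channel, rose by 0.67, but lost the call without 8 of the 12 libraries in turn. Of 23 junction genes 2 were higher and 1 lower, and 1 and 0 after correction. Dsg2, a cadherin of desmosomes, rose from 318, 330 and 368 to 532, 567 and 600.5, or by 0.74 on the log2 scale, and kept the call at 0.63. Jup, which encodes the desmosomal plakoglobin, fell from 1921, 1823 and 2089 to 1155, 980 and 961, or by 0.92, and did not keep it at -0.42. In calcium handling 2 of 27 genes were higher and 1 lower, and Hrc, a calcium-binding protein of the sarcoplasmic reticulum, kept its call after correction, rising by 0.68 and by 0.87 with it, but not without Ctrl_TAC_3800. Chrm2, the muscarinic receptor of the heart, rose by 0.83 and was at 0.47 after correction.

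Most calls among regulators of transcription were lost after GC correction. Over all genes tested, calls went from 4.82% higher and 6.88% lower to 0.971% and 1.67% with it. Nkx2-5, a homeobox factor of cardiomyocytes, had 162, 136 and 126 normalized reads in CIP-OE-TAC and 509, 404 and 334 in Ctrl-TAC hearts, a fall of 1.54 that was -0.57 and not called after GC correction. Of 30 cardiac transcription factors 3 were higher and 2 lower before and 1 and 0 after correction. Of 28 immediate early genes 5 were lower and 0 higher with a median of -0.66, and 0 were called after correction with a median of -0.39. The count was 7 without Ctrl_TAC_3586, 3 without KI_TAC_3579 and 2 without Ctrl_TAC_3800. Klf2, a factor induced by flow in endothelium, fell by 1.65 with 184.5, 169 and 235 against 477.5, 1084 and 442, and Junb by 1.35 with 105, 101 and 114 against 259, 408 and 193. Splicing regulators ran the other way, with 8 of 41 higher, 1 lower and a median of 0.34, which became 2, 0 and 0.14. Hnrnpc, which binds nascent transcripts, rose by 0.83 from 318, 349 and 344.5 to 566, 577 and 661, and was at 0.52 after correction. A pseudogene matches 31.8% of its transcript. Tardbp, the RNA-binding protein TDP-43, rose by 0.84 and was at 0.49 after it. Of 61 chromatin regulators 5 were higher and 3 lower, beside 4.82% and 6.88% of all genes. After GC correction limma called 0 of them, with 9 higher and 1 lower at an unadjusted p under 0.05, and before it the higher count was 2 without KI_TAC_3579, 3 without Ctrl_TAC_3586 and 8 without KI_TAC_3587. Of 30 cell cycle genes 0 were called by limma, edgeR or DESeq2, with 3 higher and 2 lower at an unadjusted p under 0.05 in limma.

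Stress and protein quality genes fell in part. The list of amino acid and integrated stress response genes held 5 lower and 1 higher of 29, and 2 and 0 after GC correction, Cebpb and Eif4ebp1. Eif4ebp1, a repressor of cap-dependent translation and a target of ATF4, had 228, 201 and 231 normalized reads against 347, 324 and 434, a fall of 0.73 that was 0.82 in size after correction. Atf5 fell by 0.95 and Ppp1r15a, which restarts translation after stress, by 0.89, and both lost the call, at -0.30 and -0.57. Hspb6, a small heat shock protein of heart muscle, had 12575, 11361 and 8964 against 17577, 22432 and 22313, a fall of 0.93 that kept its call at -0.65. Hspd1, the chaperonin of the mitochondrial matrix, rose by 0.77 and kept the call at 0.62, although pseudogenes match 71.1% of its transcript. Of 26 chaperones of the endoplasmic reticulum 2 were higher and 1 lower, and 0 of either after correction. There Hsp90b1 rose by 0.87 and Canx by 0.67, both lost after correction. Of 41 autophagy and lysosome genes 4 were lower and 1 higher, and 0 after correction. Ctsd, the lysosomal protease cathepsin D, had 2787, 2503 and 2606 against 5159, 4470 and 5227, a fall of 0.91, and was at -0.58 after correction, just short of the fold threshold. Of 35 p53 target and apoptosis genes 6 were lower and 0 higher, and 0 after correction, with Phlda3 falling most at 1.72. Cytosolic ribosomal protein genes, with 15 lower and 2 higher of 64, and 9 and 5 after correction, share reads with many pseudogenes and were not described one by one.

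Matrix genes were lower in CIP-OE-TAC hearts before GC correction and mostly not after it. Over all genes tested, 6.88% were called lower before the correction and 1.67% after it. Of 48 glycoproteins, proteoglycans and elastic fibre genes 13 were lower and 2 higher with a median of -0.31, and 0 and 1 after correction with a median of -0.17. The lower count was 5 without KI_TAC_3579. Eln, elastin, had 168, 210.0 and 190 normalized reads against 380, 655 and 478, a fall of 1.38 that was 0.88 in size after correction and not called there. Ogn, the proteoglycan osteoglycin, went the other way with 1036, 1139 and 1613 against 740, 854 and 592, a rise of 0.78 and of 0.26 after correction. Of 26 collagens 5 were lower and 1 higher with a median of -0.51, and 0 and 1 after correction. The lower count was 9 without KI_TAC_3587 and 3 without KI_TAC_3577, KI_TAC_3579, Ctrl_TAC_3586 or Ctrl_TAC_3800. Col3a1, the fibrillar collagen of distensible tissue, had 666, 1245 and 1344 against 1478, 2508 and 1226, where 2 CIP-OE-TAC libraries overlap the controls. Among 26 genes of collagen crosslinking and folding, Pcolce and Loxl2 fell and kept their calls. Pcolce, the enhancer of procollagen C-proteinase, had 266, 271 and 349 against 562, 746 and 501, a log2 fold change of -1.02 (adjusted p = 6.83e-04 from limma), or -0.75 after correction. Loxl2, a lysyl oxidase, stood at 121, 122 and 120.3 against 204, 263 and 194, or -0.85, with repeats in other loci matching 48% of its transcript.

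The TGF-beta pathway drives fibrosis. Of 40 of its genes 10 were called lower and 0 higher by limma with a median of -0.20, and 15 were lower and 6 higher at an unadjusted p under 0.05. After GC correction 2 were lower, Tgfb1 and Id3, and the median was -0.04. The lower count was 5 without KI_TAC_3579 or Ctrl_TAC_3586 and 6 without Ctrl_TAC_3800. The ligand gene Tgfb1 had 179, 144 and 147 normalized reads against 327, 258 and 254, a log2 difference of -0.83 with a standard error of 0.164 (limma, adjusted p = 0.00294), or -0.68 after correction. Lrrc32, which tethers the latent ligand at the cell surface, fell by 1.10 with 99.4, 68.5 and 102 against 179, 219 and 179. Id3 and Smad7, both targets of the pathway, fell by 1.05 and 0.91 and were at -0.73 and -0.52 after correction. In the PDGF, FGF and VEGF families 2 of 38 were higher and 2 lower, near the shares over all genes, and 0 of either after correction. Erbb4, the receptor of neuregulin on cardiomyocytes, rose by 0.91 and Fgfr1 fell by 0.85, and both lost the call after correction. In the list of renin-angiotensin, endothelin and natriuretic genes 3 of 29 were higher and 1 lower, and Prkg1, Pde4d and Nppa kept their calls.

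Calls among immune genes stand beside 4.82% higher and 6.88% lower over all genes tested. Of 44 interferon-stimulated genes 4 were lower and 1 higher with a median of -0.14, and 1 and 0 after GC correction. The lower count was 1 without KI_TAC_3587, 2 without KI_TAC_3579 or Ctrl_TAC_3586 and 8 without Ctrl_TAC_4231. Ifi27l2a had 20.8, 23.4 and 43.2 normalized reads against 167, 129 and 52.9, the largest fall of the list at 1.88. It lost the call after correction, and its 3 control values spread widely. Ifit3 was lower in both CIP-OE groups than in all controls, but Ifit3b matches 97.4% of its transcript. Of 22 genes of MHC antigen presentation 0 were called by limma with a median of -0.52, and 6 were lower and 1 higher at an unadjusted p under 0.05. Without Ctrl_TAC_4231 limma called 8 of them lower, and with all libraries edgeR called 1 and DESeq2 2. Of 17 macrophage markers Mrc1, the mannose receptor, was higher, with 241, 303 and 256 normalized reads against 128, 160.5 and 147.5, a rise of 0.87 that was at 0.58 after correction.

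Normalized reads of cell type markers were summed in each library. The 12 cardiomyocyte markers summed to 255131 to 294510 normalized reads in CIP-OE-TAC hearts and 245885 to 298587 in Ctrl-TAC hearts, and all 12 passed the filter in this heart tissue. The atrial list summed to 5787 to 9430 against 15771 to 29155, nearly all of it Nppa, while its members Myl7, Sln and Bmp10 were below 10 in every library. The 14 fibroblast markers overlapped, at 12459 to 22636 against 16863 to 20228. Activated fibroblast markers summed to 2218 to 5514 against 5327 to 7914, with 0 of 11 called by limma, 4 lower at an unadjusted p under 0.05, 1 lower by edgeR and by DESeq2, and 6 lower by limma without KI_TAC_3587. Postn, the periostin of activated fibroblasts, had 990.3, 1040 and 2527 normalized reads against 2369, 4198 and 1930, so KI_TAC_3587 overlapped the controls and the others did not. Endothelial sums of 25286 to 26867 lay within the control range of 22390 to 30193. Cd36, the most abundant of the 18 markers, took 12191 to 14062 of the sum against 8175 to 12062, whereas 5 markers were called lower (1 after GC correction) and the median was -0.29. Endocardial markers summed to 583 to 722 against 758 to 878 and Schwann cell and neuron markers to 181 to 211 against 129 to 154, and in neither list did the groups overlap. Macrophage sums overlapped at 2729 to 3240 against 2244 to 3467. The part of these shifts in the matrix, endothelial and stress results was not tested.

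**Figure D5:**
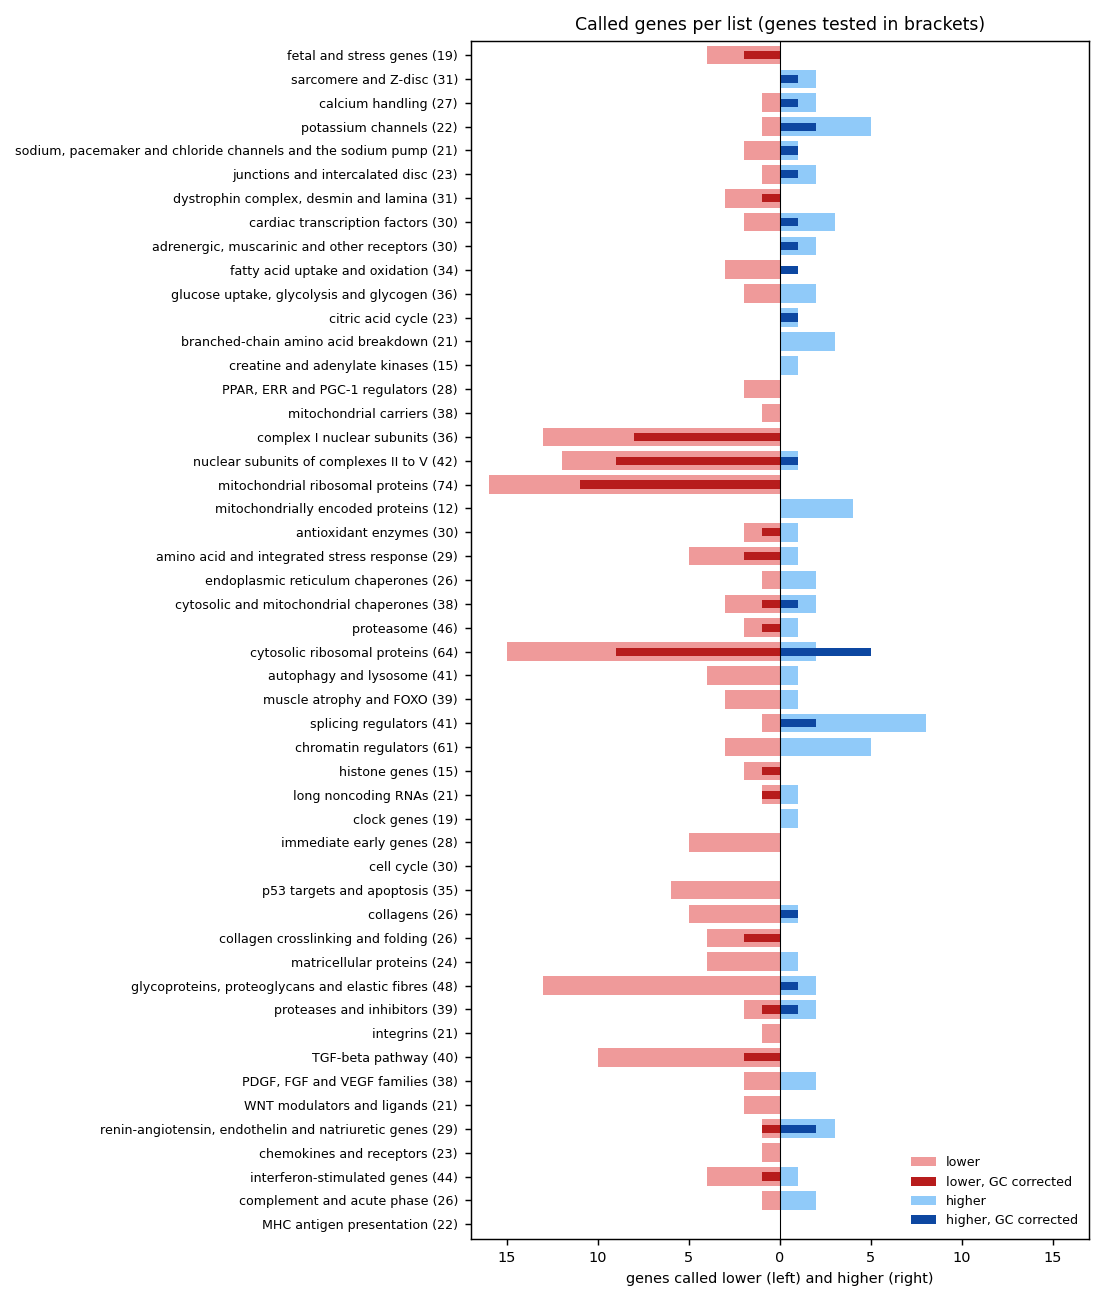
Genes called lower (left of 0) and higher (right of 0) in hearts of the CIP-OE-TAC group in each gene list, with the number tested in brackets, wide pale bars for the values as tested and narrow dark bars after GC correction. The longest dark bars are those of the mitochondrial ribosome with 11, complexes II to V and cytosolic ribosomal proteins with 9 each and complex I with 8 genes called lower.

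Promoters were searched for motifs of known regulators. Of the genes tested, 9832 had a promoter of 300 bases in the RefSeq table, 250 before and 50 after the start, and both strands were searched. The E-box CACGTG was in 11.9% of all, 13.7% of genes called higher and 12.7% of those called lower. The GATA factor motif AGATAA was in 7.88, 9.68 and 5.86%, and the AP-1 site TGANTCA in 6.14, 7.66 and 7.56%. TATAAA stood in 9.18, 10.1 and 8.49%, TGACGTCA in 3.5, 3.6 and 4.01% and the ATF4 element TGATGNAA in 2.76, 2.7 and 1.54%. Sites for MEF2, given by name, were in 2.43, 3.6 and 1.85% and CArG boxes in 1.6, 2.48 and 2.01%. TCAAGGTCA, the motif of estrogen-related receptors, which regulate mitochondrial genes, was in 0.336, 0.225 and 0.772%, and the estrogen response element in 1 promoter of all. Among the 74 promoters of genes called higher after GC correction the GATA factor motif was in 11 (14.9%), the MEF2 site in 5 (6.76%) and the ATF4 element in 4 (5.41%). Among the 150 of genes called lower they were in 9 (6%), 2 (1.33%) and 4 (2.67%). These numbers are small and were not tested. Median promoter GC content was 60.7% for all, 60% for genes called higher and 61.7% for those called lower, a smaller gap than that of the transcripts.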

How the data were processed

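Heart total RNA of 12 mice was sequenced on the BGIseq platform, and samples were grouped by the submitters' labels. The authors deposited a signal for each gene, namely its read count over a size factor of the library. The paper describes alignment to mm10 with STAR, counting with featureCounts and testing with DESeq2. The submitters' processing notes list other tools for GRCm38, HISAT2 2.0.4 and StringTie 2.1.4, beside DESeq2 1.4.5, and the annotation release and strand setting are not given in the sources used here. Every value was a whole multiple of its library's unit (100% of values, tolerance 0.001), so whole reads were recovered. Replicate libraries differed by more than sampling noise. Of 54515 rows, 633 exact duplicates were removed, and 28 names that are dates were kept as they stood.

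The test was limma 3.58.1 under R 4.3.3 on log2(value + 1), fitted to the means of the 4 groups with robust, trended variances from all 12 libraries, and p-values were adjusted over the 13392 genes. The values are not raw counts, so tests of the recovered reads by edgeR 4.0.16 and DESeq2 1.42.0 served as alternatives only. On simulated counts for this comparison over 13392 genes, limma recovered 76% of 100 genes with a fold of 2 and 100% of 100 with a fold of 4, and 3.3% of its calls were false. The simulated libraries held no shift with GC content, so these shares do not describe the calls in the real libraries, which have one. The interaction contrast asks whether the genotype difference under TAC differs from that in sham hearts. GC content, coordinates and gene types came from GENCODE M21 of GRCm38, which held 53114 of 53882 symbols, and 13264 tested genes had a GC content. Genes without one, Cyr61 and Ctgf among them, stayed uncorrected. The correction subtracts a loess curve (span 0.3) of each library's deviations from the gene means over GC. Near-identical copies were sought with BLAST 2.17.0 among GENCODE transcripts (at least 95% identity over 150 bases). Python 3.11.15, pandas 2.3.3, SciPy 1.17.1 and matplotlib 3.10.9 were used.

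The members and lists were chosen with earlier results of these data known. Named genes were called, reached a mean of 50 without overlap between the groups, kept the call after GC correction and without any 1 library, and were the 15 largest in each direction, with pseudogenes, predicted genes, ribosomal proteins, mitochondrially encoded genes and genes already described left out. In each list described, the member with the most reads and the largest called changes were taken, and some of these are not reported here. Other list members, the genes that separate both CIP-OE groups and the genes with few reads were named after their values were seen. Of 72 lists, 56 had 10 or more tested genes, and not all are described. Other pseudocounts, filters, scalings, corrections, tests and left-out libraries were tried.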

Additional observations from a re-analysis of the deposited data

Results flagged for a closer look

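The difference between genotypes under TAC was larger or smaller than that in sham hearts in 23 of the 30 genes described, by the interaction of genotype and surgery at an adjusted p under 0.05 in limma. Since the genes were chosen for their difference under TAC, which is part of the interaction, the number is a description. In each of the 23 genes the sham difference itself did not pass the test.

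The interaction was positive, on the log2 scale, for Bhlhb9 (1.49), Nr3c2 (1.4), Npm1 (1.36), Klhl33 (1.31), Ankrd61 (1.11), Rprd1a (0.99), Kcnj5 (0.98), Btf3 (0.93), Suclg2 (0.90) and Emilin2 (0.79). It was negative for Aldoart1 (-4.09), Mir5125 (-2.32), Tuba1b (-2.29), Phpt1 (-2.15), Mmp11 (-1.98), Dpm3 (-1.97), Apod (-1.58), Mrpl52 (-1.41), Bri3 (-1.38), Acbd6 (-1.38), Tspo (-1.27), Ndufa11 (-1.25) and Sox18 (-1.21). Among the positive ones, the mineralocorticoid receptor gene Nr3c2 stood at 132 to 244 normalized reads in sham hearts of both genotypes. It had 48.6 to 77.8 in Ctrl-TAC and 101.5 to 156 in CIP-OE-TAC hearts. Apod, among the negative ones, ran the other way, with 22.1 to 42.2 in sham hearts. Its values were 130.2 to 163.7 in Ctrl-TAC and 44.2 to 54.4 in CIP-OE-TAC hearts.

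After GC correction 11 of the 23 still passed, namely Bhlhb9, Npm1, Emilin2, Btf3, Klhl33, Nr3c2, Aldoart1, Mir5125, Acbd6, Apod and Mmp11. Frem2, Prkg1, Sox6, H3f3a, Pgp, Mlip and Esr1 did not pass before it, with adjusted p from 0.0720 to 0.897 in limma.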

How the results depend on the processing

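With 3 animals a group the counts of calls moved with single libraries, and a p that missed the threshold does not show that values did not differ. Against 646 genes called higher and 921 lower, leaving out 1 library gave 368 to 861 higher and 566 to 1000 lower, with 368 and 566 without KI_TAC_3579 and 394 and 571 without Ctrl_TAC_3586. GC correction gave 130 and 223, and GC with length correction 153 and 218. Without the fold threshold 1220 genes were higher, and 1242 lower. Scaling by trimmed totals, which leave out mitochondrial transcripts and the top 20 genes, gave 853 and 769, so 52.6% of calls were higher against 41.2%, with a median log2 shift of all genes of 0.05. DESeq2 gave 589 and 1000 and edgeR 626 and 1019. The number of described genes with an interaction past the threshold was 23, and 11 under GC correction, 11 under GC and length correction and 12 in limma without trend, while leaving out 1 library gave 14 to 23, with 14 without KI_TAC_3579. The mitochondrial share of reads differed by 6.23 points with protein genes alone (exact permutation p = 0.3) and by 6.74 with all. The 30 described genes kept their direction and side of the threshold under every alternative that tested them, as the rule that chose them asked in part. The groups share no animal numbers. No paired analysis was possible because the labels pair no animals across groups.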

Other observations

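Some genes with few reads, not all of them below the filter, had reads in 1 genotype alone. They were chosen after their values were seen, and no test of this split was run. With at least 10 reads over the 6 libraries of a genotype, 14 genes had reads in CIP-OE and 0 in all 6 control libraries, and 16 the reverse, so such splits occurred at like number in both directions. Among the former were genes that hepatocytes express. The vitamin D binding protein gene Gc had 0, 13 and 8 reads in the CIP-OE-Sham and 35, 11 and 20 in the CIP-OE-TAC libraries, and albumin (Alb) 0, 6 and 9 and 16, 6 and 10. Mup3 had 21 and Azgp1 12 reads in all. Apob, the apolipoprotein of very low density lipoprotein, had 34 reads in CIP-OE and 1 in control libraries. Other liver genes did not follow, with 0 reads of Serpina1a, 1 each of Apoc3 and Fabp1, and Ahsg at 142 reads in control and 122 in CIP-OE libraries. For the genes with 0 control reads, a count of 0 allows up to 3 reads in 44932775. A1cf, beside which the Mer-Cre-Mer transgene lies by background knowledge, had 27 reads in CIP-OE libraries, with 2 to 7 in each.

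The reverse set held Cxcl13, a chemokine that attracts B cells, with 3, 1 and 5 reads in the Ctrl-Sham and 3, 16 and 1 in the Ctrl-TAC libraries, and 0 in every CIP-OE library. Ifi202b, an interferon-inducible gene known to vary between mouse strains, had 14, 36 and 32 reads in the CIP-OE-TAC libraries and 21, 0 and 0 in the Ctrl-TAC libraries, with 8, 0 and 20 in CIP-OE-Sham and 1, 0 and 0 in Ctrl-Sham libraries. Its reads thus ranged from 0 to 21 within the Ctrl-TAC group alone.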
